A study of Mus musculus with 15 samples.

Results

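FXRα3 is the isoform of the bile acid receptor FXR that carries both the longer N-terminus and the short amino acid insert beside the DNA-binding domain, and its effect on hepatocytes was read from 6 of the 15 arrays of the series. These were the 3 arrays whose titles name FXRα3 and the 3 arrays whose titles name GFP. Primary hepatocytes of male C57BL/6J mice were freed by collagenase perfusion, purified on Percoll and plated at 450000 cells per well. FXRα3 cells received overnight an adenovirus encoding the human isoform and, from its own CMV promoter, GFP; control cells received a virus with GFP alone. The remaining groups, used here only for comparison, carried in the same way human FXRα1 (insert, shorter N-terminus), FXRα2 (no insert, shorter N-terminus) or FXRα4 (no insert, longer N-terminus), with 3 arrays each. All groups therefore carried adenovirus and GFP, kept their own mouse FXR, spent the last day of culture without dexamethasone and insulin, and were lysed 36 h after transduction; the sources name no added FXR ligand. The animals' age is not given in the sources used here, nor is the source of the replicates (animals, preparations or wells); each p-value is therefore a statement about spread among arrays, which may be technical.

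FXR is a nuclear receptor for bile acids. It binds DNA, largely as a partner of the retinoid X receptor, at inverted repeats of the AGGTCA half-site spaced by a base, and in liver it is known for raising the bile salt export pump Abcb11 and the repressor Nr0b2 (SHP) and, through the latter, limiting bile acid synthesis. A pair of promoters and alternative splicing of the gene give isoforms that differ in the N-terminus and in the insert, and forms with and without the insert are known to differ in strength at some targets. Mouse Nr1h4, the gene of FXR itself, overlapped between the groups, with arrays from 6.90 upward with FXRα3 and up to 7.03 with GFP, and its means differed by -0.02 ± 0.07 (adjusted p = 0.955, limma). That probe set reads the mouse gene, so it does not test for the human transgene, and the amount of each human isoform was not analysed here.

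Values are log2 signals, 1 probe set per gene, and a difference of 1 is a factor of 2; each ± in a difference is the standard error of the limma fit over all 15 arrays. Of 18820 genes, 1402 rose with FXRα3 (7.45%) and 1245 fell (6.62%) at an adjusted p under 0.05, 14.1% in all. Counts of list members below are to be read beside the shares of all genes in the same comparison. A count near that share does not set its list apart. Changes were mostly small: 66 risen and 26 fallen genes differed by at least 2-fold, and the median difference over all genes was -0.0026. Centring each array on the median of its 18820 tested genes shifted all differences by -0.0387. That moved the split from 52.97% to 39.90% risen among called genes, with 1220 risen and 1838 fallen. The arrays of both groups did not overlap for 31.2% of all genes. Among the 2647 called genes they did not overlap in 2638, so for a called gene this adds little. Hepatocyte markers averaged 10.35 to 10.40 in the FXRα3 arrays and 10.30 to 10.36 with GFP, while the marker lists of Kupffer, sinusoidal endothelial, stellate and lymphoid or neutrophil cells averaged 3.68 to 4.77 in both groups. Of those 4 lists, 1 of 47 measured genes passed the test, the endothelial marker Oit3, at -0.43 ± 0.12, a call lost without FXRα3 replicate 1 or GFP replicate 2. In bulk RNA, fewer cells of a type and less RNA per cell cannot be told apart.

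**Figure D1:**
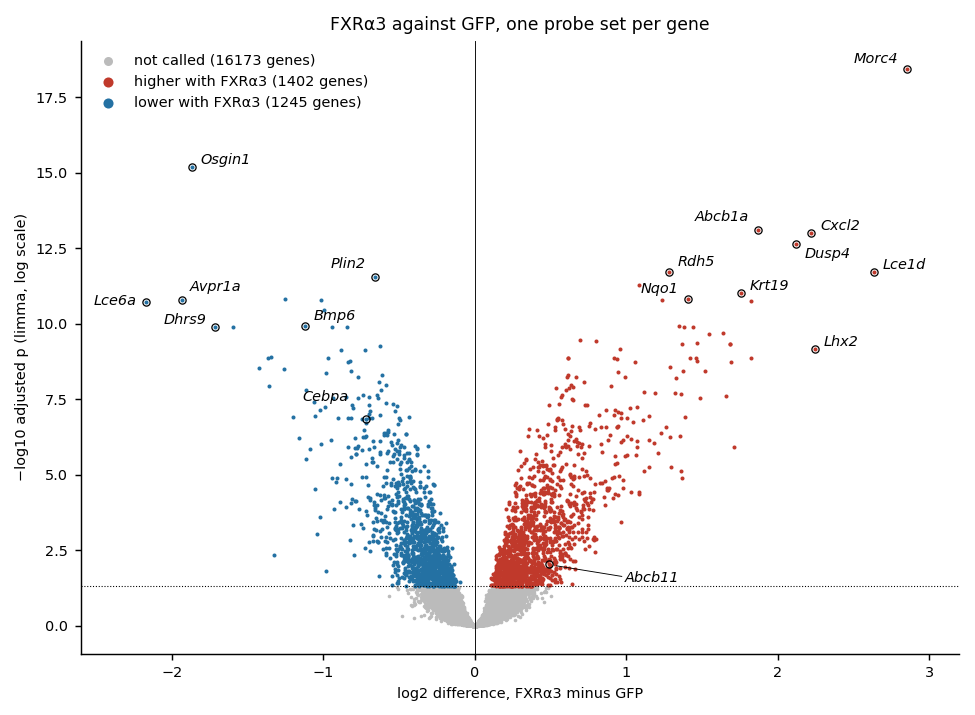
Each point is 1 of 18820 genes; the x axis is the log2 difference FXRα3 minus GFP and the y axis is minus log10 of the limma adjusted p, with a dotted line at 0.05. Red and blue points are the 1402 risen and 1245 fallen genes; Morc4 at 2.86 and Lce6a at -2.17 mark the ends of the range.

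Genes of bile acid handling moved in both directions, and the classical FXR genes moved little. Abcb11 encodes the pump that moves bile salts from hepatocytes into bile, and its proximal promoter is a textbook FXR site, so the bases before its start are shown here. The stretch is the 250 bases before the RefSeq start (mouse GRCm38.p6, chr2:69342617-69342866, minus strand), and its capitals mark the match to the inverted repeat AGGTCANTGACCT, allowing 1 mismatch on either strand (first base at -63 from the start).
Abcb11: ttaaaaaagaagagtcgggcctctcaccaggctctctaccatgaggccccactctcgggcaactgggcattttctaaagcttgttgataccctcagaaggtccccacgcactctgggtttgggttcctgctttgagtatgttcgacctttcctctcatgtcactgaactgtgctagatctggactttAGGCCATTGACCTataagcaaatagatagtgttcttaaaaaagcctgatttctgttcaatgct
Such a match stood in 27 of 32851 promoter windows of 250 bases before to 50 after a start (0.082%), and among the 24 measured FXR targets with a window it stood in Abcb11 alone.

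Abcb11 read 5.53, 5.51 and 5.95 with FXRα3 and 5.27, 5.04 and 5.21 with GFP. Every FXRα3 array was above every GFP array, the third by the widest margin, and the rise was 0.49 ± 0.13 (adjusted p = 0.00928, limma), or 1.41-fold. Without FXRα3 replicate 3 the difference was 0.35, and without GFP replicate 2 it was 0.43; neither passed the test. Nr0b2, the SHP repressor, is the other classical target, and it was lower: 4.24, 4.20 and 4.14 against 4.75, 4.60 and 4.61, -0.46 ± 0.13 (adjusted p = 0.0141). That call was lost without FXRα3 replicate 3 (-0.43) or GFP replicate 1 (-0.41), and these are dim values that shrank to -0.26 when 16 was added to the linear signals. Slc51b, a subunit of the basolateral bile acid exporter, read 4.49, 4.59 and 4.59 against 3.93, 4.50 and 4.28; the groups overlapped and the difference of 0.32 ± 0.15 did not pass after adjustment (adjusted p = 0.2).

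Beside Abcb11 and Nr0b2, the list of FXR targets held genes that moved further. Of its 30 measured members 10 rose and 5 fell (7.45% and 6.62% of all genes did), with a median difference of 0.08; without FXRα3 replicate 3 the counts were 7 and 3, and without GFP replicate 1 they were 9 and 3. Osgin1, an oxidative stress-responsive growth inhibitor that bile acids and FXR are known to raise, was the most changed of them and moved down. It read 9.005, 9.05 and 8.89 with FXRα3 and 10.85, 10.83 and 10.87 with GFP, 3.65-fold lower (-1.87 ± 0.06; adjusted p = 6.63e-16), and the groups were far apart in all arrays. Pdk4, the kinase that shuts off pyruvate dehydrogenase, rose by 0.83 ± 0.12, from 6.05–6.31 in the GFP arrays to 6.96–7.19 in the FXRα3 arrays. Apoc2, the activator of lipoprotein lipase, rose by 0.60 ± 0.07, and the export pump Abcc2 by 0.34 ± 0.04. The sterol sensor partner Insig2 fell by 0.38 and the phosphatidate phosphatase Lpin1 by 0.45.

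In the synthesis of bile acids, Cyp8b1, the enzyme that sets the share of cholic acid, read 6.34, 6.47 and 6.11 with FXRα3 and 5.71, 5.59 and 5.67 with GFP, a rise of 0.65 ± 0.11 (adjusted p = 1.99e-04, limma). Cyp7a1, the rate-limiting enzyme, lay between 3.04 and 3.22 with FXRα3 and between 3.13 and 3.28 with GFP, low values that overlapped and whose difference of -0.08 ± 0.08 did not pass. Klb, the co-receptor through which intestinal FGF15 acts on the liver, fell from 6.54, 6.64 and 6.74 to 5.73, 5.66 and 5.88, or -0.89 ± 0.11. The peroxisomal enzyme Hsd17b4 fell by 0.46 and the hydroxysteroid reductase Akr1c14 by 0.82. Of the 20 members of this list 3 rose and 4 fell. Among 21 transporters 7 rose and 2 fell; 4 of them rose without FXRα3 replicate 3 or GFP replicate 2, 0 fell without GFP replicate 1, and 1 fell after 75th percentile centring or without FXRα3 replicate 1, FXRα3 replicate 3 or GFP replicate 3. The multidrug pump Abcb1a (P-glycoprotein) moved furthest among them, at 8.80, 8.75 and 8.94 against 6.98, 6.85 and 7.05, 3.66-fold higher (1.87 ± 0.07; adjusted p = 7.95e-14). Atp8b1, the aminophospholipid flippase of the canalicular membrane, rose by 0.42 ± 0.09.

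**Figure D2:**
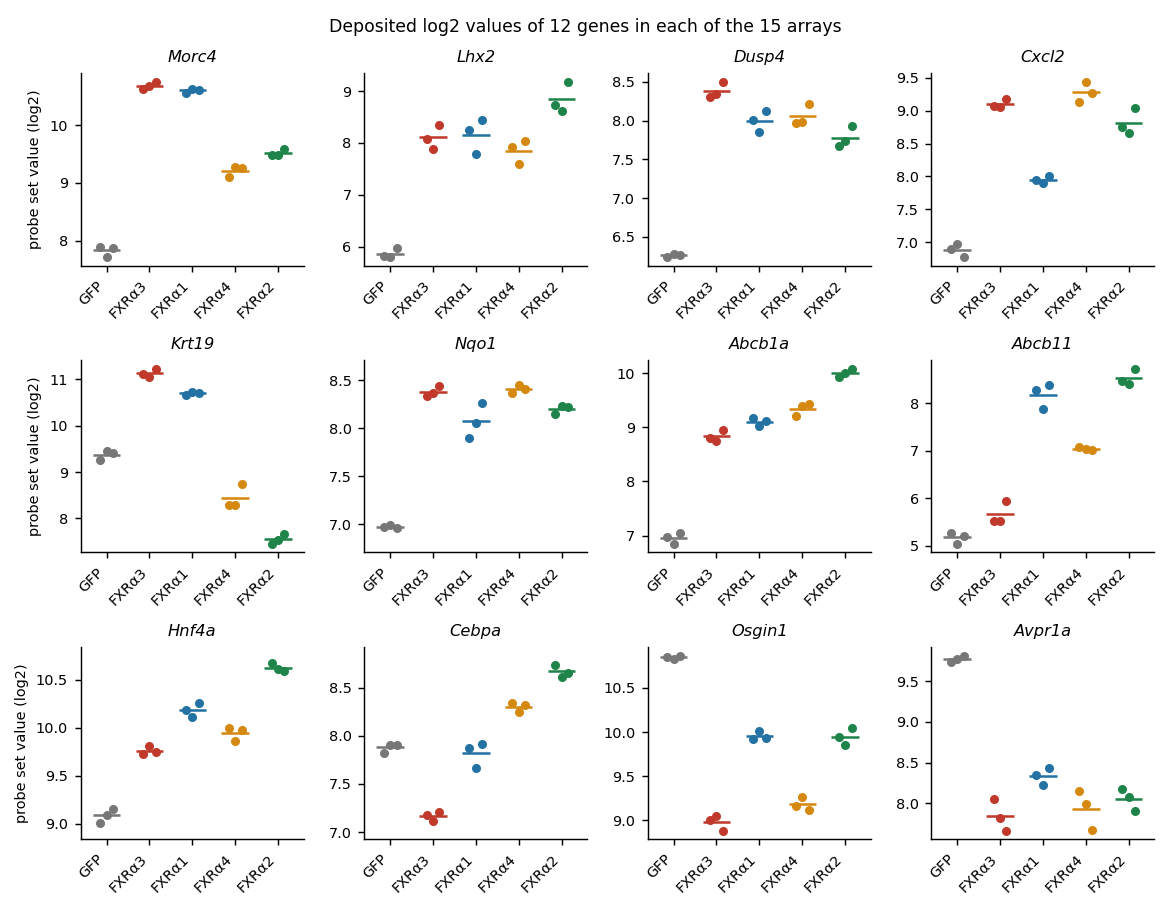
Each panel is 1 gene, each point 1 of the 15 arrays and each bar the mean of 3 arrays, on the deposited log2 scale, with the y axis fitted to the gene. FXRα3 arrays lay apart from GFP arrays in all 12 genes, with mean differences of 0.49 for Abcb11 and 2.86 for Morc4. All 12 are called genes, and 2638 of the 2647 called genes have arrays that do not overlap.

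The largest rise was that of Morc4, a nuclear ATPase of the MORC family. It read 7.89, 7.72 and 7.88 with GFP and 10.63, 10.68 and 10.75 with FXRα3, 7.24-fold higher (2.86 ± 0.06; adjusted p = 3.52e-19, limma), with tight replicates in both groups. The late cornified envelope gene Lce1d, which belongs to a gene cluster known from skin, rose from 4.38, 4.32 and 4.24 to 6.80, 6.93 and 7.09, and its family member Lce6a fell from 6.97, 6.94 and 7.12 to 4.78, 4.94 and 4.79. Of 19 measured genes of that list 3 rose and 1 fell, where 7.45% and 6.62% of all genes did. Lhx2, a LIM homeobox transcription factor, rose by 2.24 ± 0.15, from 5.81, 5.80 and 5.98 to 8.08, 7.89 and 8.35. Rpp25, a subunit of ribonuclease P, rose by 1.82 ± 0.13, the zinc transporter Slc30a3 by 1.82 ± 0.10, the laminin-binding integrin Itga7 by 1.69 ± 0.11, the membrane glycoprotein Cd109 by 1.66 ± 0.14 and Cdr2l by 1.69 ± 0.12.

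Among the largest falls, the vasopressin receptor Avpr1a dropped from 9.74, 9.78 and 9.81 to 8.05, 7.82 and 7.67, 3.81-fold lower (adjusted p = 1.58e-11, limma). Urad, which acts in the breakdown of uric acid, fell by 1.36, and Uox, the urate oxidase upstream of it, by 0.53. The contractile genes Cnn1 (calponin) and Actc1 (cardiac actin) fell by 1.36 and 1.16. The autophagy E2-like enzyme Atg10 fell by 1.35, the prion-like gene Prnd by 1.26, the lysosomal sulfatase Arsg by 1.25 and Afg1l by 1.12. In each of these genes the 3 FXRα3 arrays lay below the 3 GFP arrays, which the rule for naming the largest falls required. Fmo2 and Tnfsf15 fell by 1.60 and 1.42, both from low signals, and those sizes shrank to -0.93 and -0.86 with 16 added to the linear values.

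The feedback genes of the ERK pathway split. These genes encode phosphatases and adaptors that are switched on by growth factor signalling and dampen it, together with the PEA3 factors Etv4 and Etv5. Dusp4, a nuclear ERK phosphatase, read 6.24, 6.28 and 6.26 with GFP and 8.30, 8.35 and 8.50 with FXRα3, 4.34-fold higher (2.12 ± 0.09; adjusted p = 2.34e-13, limma). Dusp9, its cytoplasmic relative, rose from 5.89, 5.69 and 5.90 to 7.58, 7.34 and 7.48, and Dusp5, Etv4 and Etv5 rose by 0.39, 0.65 and 0.39. Dusp6, the cytoplasmic ERK phosphatase usually taken as the pathway's read-out, moved the other way, from 8.34, 8.45 and 8.49 to 7.66, 7.68 and 7.77 (-0.72 ± 0.08; adjusted p = 5.64e-07). Spry1, Dusp16 and Spred3 also fell, by 0.45, 0.45 and 0.58. In all, 5 of 20 members rose and 6 fell.

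Of 29 chemokines and cytokines 4 rose and 1 fell (2 with only the groups compared), where 7.45% and 6.62% of all genes did. Cxcl2, a neutrophil attractant, went from 6.89, 6.98 and 6.78 to 9.07, 9.06 and 9.18, 4.66-fold higher (2.22 ± 0.09; adjusted p = 9.72e-14, limma). Its relative Cxcl1 rose by 0.51 ± 0.07, and the monocyte attractants Ccl7 and Ccl2 by 0.61 ± 0.12 and 0.30 ± 0.06. Ccl20, the attractant of CCR6-bearing cells, was the member that fell, from 7.43, 7.65 and 7.29 to 6.58, 6.75 and 6.52. The list of NF-kappaB response genes, which many inflammatory signals raise together, had 0 risen and 3 fallen members of 19: its feedback inhibitor Tnfaip3 fell by 0.30, the coactivator Bcl3 by 0.48 and Tnfaip2 by 0.38, the last of which lost its call without GFP replicate 3. After median centring 6 of them fell, and after 75th percentile centring or with only the groups compared 2 rose. At an unadjusted p under 0.05 the list had 2 risen and 5 fallen members. Among 19 immediate early genes 5 rose and 3 fell; the factors Klf4 and Junb rose by 0.71 and 0.43, while Jun fell by 0.36. Without FXRα3 replicate 1, 1 of the NF-kappaB genes rose.

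Genes of the NRF2 response, which defends cells against electrophiles and oxidants, were more often higher than lower: 11 of 31 rose and 3 fell. Nqo1, a quinone reductase and a standard marker of the pathway, rose from 6.97, 6.99 and 6.97 to 8.34, 8.37 and 8.44, 2.65-fold (1.41 ± 0.07; adjusted p = 1.51e-11, limma). The carbonyl reductase Cbr3 rose from 5.32, 5.46 and 5.52 to 7.04, 6.82 and 7.59, with the third FXRα3 array highest. The cystine carrier Slc7a11, the heme oxygenase Hmox1 and the glutathione transferase Gsta4 rose by 0.62, 0.58 and 0.55. Osgin1, described above, belongs to this list as well and fell. The median of the list was 0.07.

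The stress response that acts through ATF4 shares Slc7a11 with that list and split too, with 10 of 26 genes risen and 4 fallen. The serine synthesis gene Psat1 rose by 0.31 and the endoplasmic reticulum chaperone cofactor Dnajb9 by 0.37, whereas Herpud1, a factor of protein disposal at that membrane, fell from 10.35, 10.35 and 10.38 to 9.83, 9.79 and 9.61. Phgdh rose by 0.38 on its brightest probe set, while its dimmer probe sets did not pass the test. Of 20 p53 response genes 1 rose (Plk3, 0.45) and 3 fell, where 7.45% and 6.62% of all genes did. The fallen numbered 6 after quantile normalization and 5 after median centring or with only the groups compared. They numbered 1 without FXRα3 replicate 1 or GFP replicate 1. With only the groups compared 2 rose.

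DNA replication held the largest share of risen genes among the lists. Of 25 measured genes 14 rose, 11 were not called and 0 fell in limma (13 or 14 rose when any 1 array was left out), with a median difference of 0.30, and 0 fell at an unadjusted p under 0.05. E2F factors are the textbook regulators of this group, and the promoters of 2 risen members, the helicase subunit Mcm5 and the catalytic subunit of polymerase alpha Pola1, are shown with the E2F match TTTNGCGC, searched on both strands, in capitals. Both stretches are the bases -200 to -81 from the RefSeq start in mouse GRCm38.p6: chr8:75109309-75109428, plus strand, for Mcm5, where matches on both strands overlap from -153, and chrX:93632236-93632355, minus strand, for Pola1, with the match at -138.
Mcm5: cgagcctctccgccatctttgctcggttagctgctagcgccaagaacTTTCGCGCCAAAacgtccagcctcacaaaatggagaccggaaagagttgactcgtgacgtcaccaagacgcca
Pola1: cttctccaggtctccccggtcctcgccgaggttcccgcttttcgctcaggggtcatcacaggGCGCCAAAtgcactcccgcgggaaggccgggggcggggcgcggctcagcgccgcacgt
An exact match stood in 452 of all 32851 windows (1.376%), in 314 of 14749 tested genes with a window (2.129%) and in 9 of 22 replication genes with a window: Mcm3, Mcm5, Mcm6, Mcm7, Rfc3, Lig1, Cdt1, Uhrf1 and Pola1. It also stood in 42 of 1141 risen and 24 of 997 fallen genes with a window. A match is only a string in this window.

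Mcm5 read 9.13, 9.23 and 9.21 with GFP and 9.50, 9.67 and 9.84 with FXRα3 (0.48 ± 0.09; adjusted p = 5.90e-04, limma), and Pola1 7.95, 7.81 and 7.89 and 8.21, 8.21 and 8.29 (0.35 ± 0.07). The replication factor Cdc45, which activates the helicase, rose from 6.98, 6.93 and 6.94 to 7.69, 7.72 and 7.92. The ribonucleotide reductase subunit Rrm2 rose from 7.41, 7.41 and 7.52 to 8.07, 8.05 and 8.46, the histone chaperone subunit Chaf1b by 0.73 ± 0.07 and the clamp loader subunit Rfc5 by 0.63 ± 0.08. Mcm6 (0.12 ± 0.05) and Cdt1 (0.09 ± 0.08), which also hold a match, did not pass. In each of these risen genes all 3 FXRα3 arrays lay above all 3 GFP arrays, as is usual for called genes.

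In the G1 list of 22 genes, E2f8, E2f1 and cyclin E1 (Ccne1) rose by 0.96, 0.45 and 0.40, while cyclin D1 (Ccnd1) fell by 0.27, a call lost when any FXRα3 array, GFP replicate 1 or GFP replicate 3 was left out, and with 16 added to the linear values. Of 24 mitotic genes 4 rose and 0 fell in limma, with 0 fallen at an unadjusted p under 0.05; the risen numbered 2 without GFP replicate 2 and 7 with only the groups compared. Cdk1, the kinase that drives entry into mitosis, rose from 7.48, 7.39 and 7.53 to 7.94, 8.03 and 8.12 (0.56 ± 0.08). Mki67, the proliferation antigen, read 4.51, 4.76 and 5.49 with FXRα3 and 4.67, 4.35 and 4.84 with GFP. The third FXRα3 array was alone above the controls, and the difference of 0.30 ± 0.22 did not pass. The third GFP array was also the highest control. Over the mitosis list replicate 3 had the highest mean in each group, at 5.64 with FXRα3 and 5.27 with GFP.

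**Figure D3:**
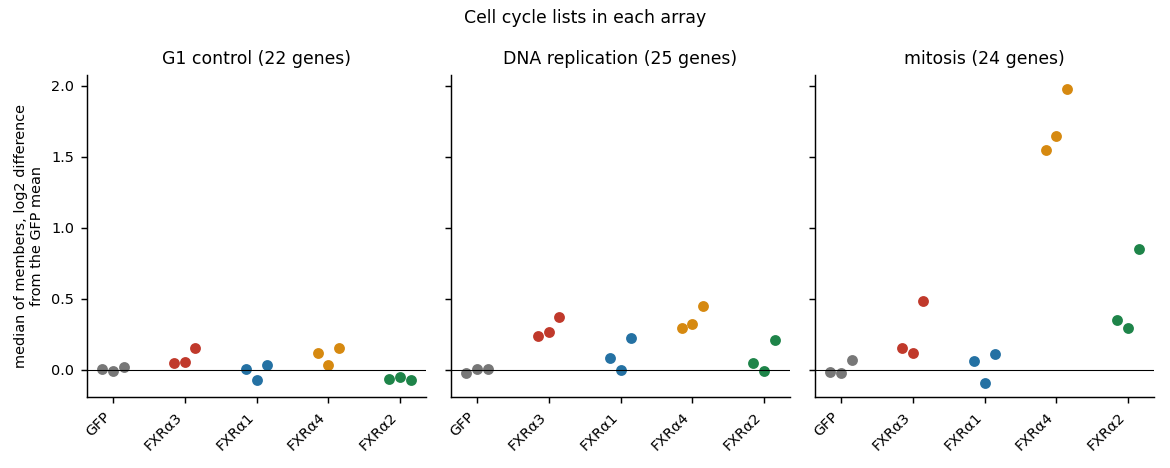
Each point is 1 array and gives the median, over the measured members of a list, of the log2 difference from the GFP mean, for 22 G1 genes, 25 replication genes and 24 mitotic genes. In the replication list the FXRα3 arrays stood at 0.24, 0.26 and 0.37, above the GFP arrays at -0.02, 0.00 and 0.01; in the mitosis list they stood at 0.15, 0.12 and 0.48, against 1.55, 1.65 and 1.98 for FXRα4.

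Some markers of bile duct epithelium rose. Of 9 measured cholangiocyte markers 4 rose, 5 were not called and 0 fell in limma (0 fell at an unadjusted p under 0.05), and the mean of the list was 6.60 to 6.65 in the FXRα3 arrays against 6.13 to 6.22 with GFP, without overlap. Krt19, the keratin of ducts and progenitors, rose from 9.26, 9.44 and 9.42 to 11.12, 11.04 and 11.23, 3.38-fold (1.76 ± 0.09; adjusted p = 9.83e-12). The adhesion molecule Epcam rose from 5.05, 4.91 and 5.10 to 5.86, 5.56 and 5.87, the ductal transcription factor Sox9 from 7.55, 7.63 and 7.55 to 8.11, 8.31 and 8.22 and the tight junction protein Cldn4 from 9.88, 10.12 and 9.996 to 10.46, 10.70 and 10.56. The part of the number of duct cells in these rises was not tested. Other epithelial genes also moved: the gap junction gene Gjb2, the integrin subunit Itgb6 and the basal keratin Krt5 rose by 0.63, 0.76 and 0.72, and the claudin Cldn3 fell by 0.43. In the adhesion list 5 of 19 rose and 2 fell; 4 fell after median centring and 1 without FXRα3 replicate 3 or GFP replicate 3.

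In the list of hepatocyte transcription factors and nuclear receptors, genes that changed were mostly lower: 2 of 27 rose and 10 fell, with a median of -0.13. Cebpa, a master factor of the hepatocyte state, fell from 7.83, 7.91 and 7.91 to 7.18, 7.11 and 7.21 (-0.71 ± 0.07; adjusted p = 1.48e-07, limma), with all FXRα3 arrays well below the controls. Hnf4a, the other master factor of that state, went the opposite way, from 9.01, 9.10 and 9.16 to 9.73, 9.81 and 9.75 (0.67 ± 0.05; adjusted p = 5.69e-09). Prox1 rose by 0.88 ± 0.10. The xenobiotic receptor Nr1i2 (PXR), the glucocorticoid receptor Nr3c1, Foxa3, Rora and Pparg fell, by 0.54, 0.39, 0.33, 0.43 and 0.38. Ppara, which drives fatty acid oxidation, differed by -0.15 ± 0.09 (95% interval -0.33 to 0.03).

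**Figure D4:**
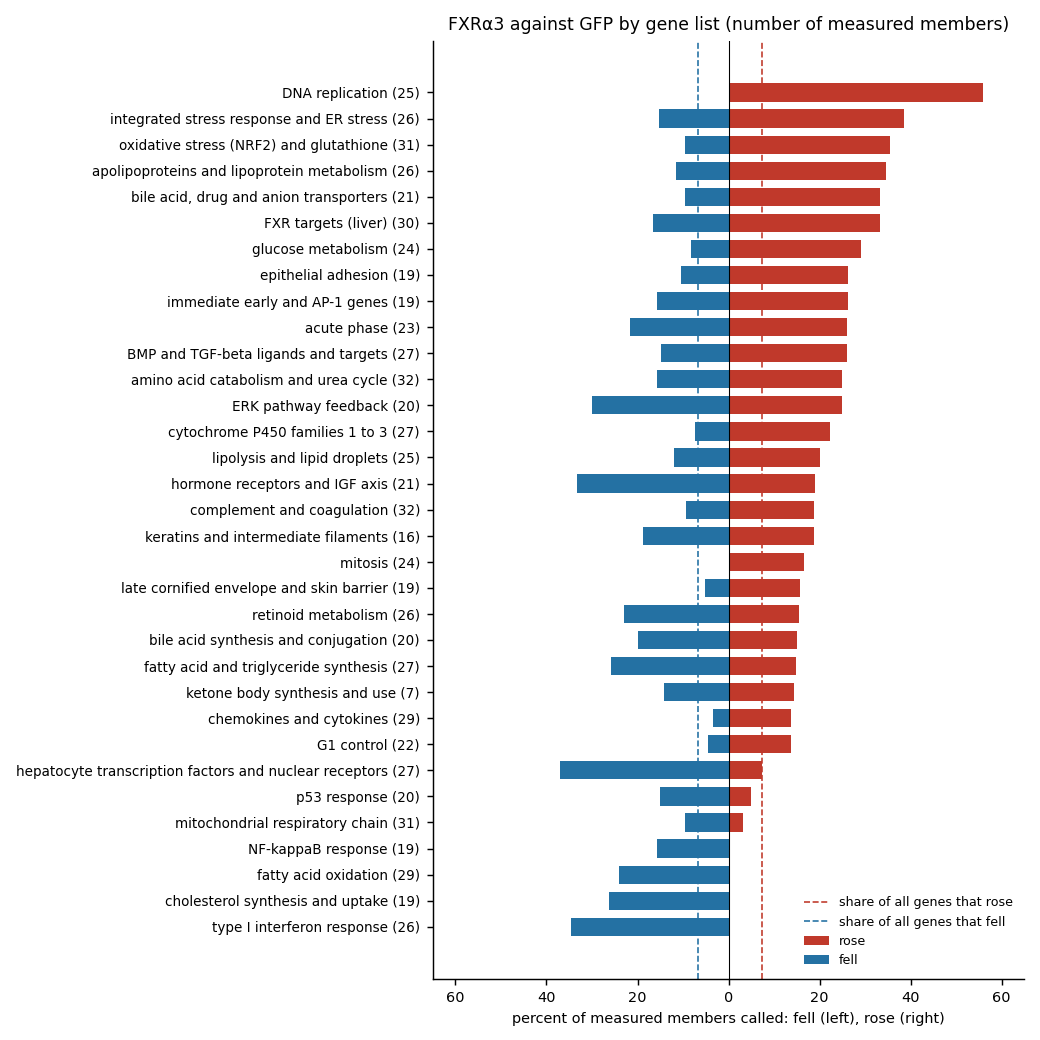
Bars give, for each of 33 lists of genes grouped by function, the percent of measured members that rose (right) or fell (left) with FXRα3 against GFP at a limma adjusted p under 0.05; numbers of members stand in parentheses. Dashed lines mark the 7.45% and 6.62% of all genes. DNA replication has the longest bar of risen members, with 14 of 25. The list of hepatocyte factors and nuclear receptors has the longest bar of fallen ones, with 10 of 27.

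Genes of lipid oxidation and cholesterol synthesis that changed were lower. Of 29 fatty acid oxidation genes 0 rose and 7 fell in limma (1 rose at an unadjusted p under 0.05), with a median of -0.10: the carnitine acetyltransferase Crat fell by 0.51 and the electron carriers Etfdh and Etfa by 0.39 and 0.38. Plin2, the coat protein of hepatocyte lipid droplets, fell from 12.28, 12.29 and 12.25 to 11.63, 11.58 and 11.63 in all 3 arrays (-0.66 ± 0.03; adjusted p = 2.92e-12, limma). In fatty acid and triglyceride synthesis 4 of 27 genes rose (2 after median centring) and 7 fell. The first enzyme of glycerolipid synthesis, Gpam, fell by 0.61 and the fatty acid synthase Fasn by 0.33, whereas the elongase Elovl3 rose from 4.86, 4.38 and 5.20 to 6.15, 6.05 and 6.34. Of 19 cholesterol synthesis genes 0 rose and 5 fell (1 rose at an unadjusted p under 0.05), among them Fdps, Sqle and Insig1 by 0.32, 0.31 and 0.30.

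Apolipoprotein genes tended the other way, with 9 of 26 risen and 3 fallen, but the small rises depended on the setting: 5 rose without FXRα3 replicate 2 or GFP replicate 3, after median centring or without the mean-variance trend. Apobec1, the enzyme that edits the apolipoprotein B transcript, rose by 0.64 ± 0.06, and the HDL protein Apoa1 by 0.27 ± 0.04. The sorting receptor Sort1 fell from 7.13, 7.17 and 7.12 to 6.38, 6.46 and 6.49, and Angptl8, an inhibitor of lipoprotein lipase that insulin raises, by 0.63.

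The pyruvate kinase isoenzymes moved in opposite directions. Pklr, the liver pyruvate kinase, fell from 11.51, 11.58 and 11.58 to 10.90, 10.97 and 10.71 (-0.70 ± 0.06; adjusted p = 4.85e-08, limma), while Pkm, the form of other tissues, rose from 9.66, 9.66 and 9.85 to 10.14, 10.21 and 10.36 (0.52 ± 0.12). The hexokinases Hk1 and Hk2, scarce in normal hepatocytes, rose by 0.86 and 0.62. The glucokinase regulator Gckr rose by 0.38, and the liver glycogen phosphorylase Pygl fell by 0.44. Of 24 genes 7 rose and 2 fell.

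Amino acid catabolism was mixed, with 8 of 32 genes risen (5 without FXRα3 replicate 2) and 5 fallen (3 without FXRα3 replicate 3). Tat, the tyrosine aminotransferase that glucocorticoids raise, fell from 10.02, 10.14 and 10.07 to 9.33, 9.33 and 9.13, and Kynu, the kynureninase of tryptophan breakdown, from 8.76, 8.73 and 8.60 to 7.87, 7.77 and 7.38. Agxt, the alanine-glyoxylate aminotransferase, rose from 5.59, 5.61 and 5.43 to 6.42, 6.50 and 6.57. Fah, the last step of tyrosine breakdown, rose by 0.39. Adjusted p-values of the first 3 were 4.76e-08, 6.99e-08 and 1.10e-05 in limma.

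Retinoid genes changed in both directions. The retinol dehydrogenase Rdh5 rose from 8.03, 8.04 and 7.98 to 9.29, 9.32 and 9.28, 2.43-fold (1.28 ± 0.06; adjusted p = 1.95e-12, limma). The short-chain reductases Dhrs9 and Dhrs3, both known to act on retinoids, fell from 7.56, 7.46 and 7.71 to 6.04, 5.78 and 5.78 and from 6.97, 6.73 and 6.85 to 5.90, 5.48 and 5.92. Dhrs4 rose by 0.50 and the carotene-cleaving enzyme Bco1 fell by 0.53. In all, 4 of 26 members rose and 6 fell.

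Ligands of the BMP and TGF-beta families moved in both directions. Bmp2 rose from 5.22, 5.18 and 4.94 to 6.73, 6.70 and 6.97, 3.22-fold (1.69 ± 0.11; adjusted p = 4.51e-10, limma), and the liver activin subunit Inhbc rose from 5.19, 5.47 and 5.19 to 6.84, 6.82 and 6.84. Bmp6, which drives hepcidin in the liver, fell from 9.81, 9.75 and 9.74 to 8.61, 8.65 and 8.67. Bmp7 rose by 1.26 ± 0.13 on its brighter probe set, while its dimmer one differed by 0.11 and did not pass. Of the targets in the list, the BMP-induced Id1 rose by 0.45, and the TGF-beta feedback gene Skil and the matricellular gene Ccn2 fell by 0.73 and 0.60. In all, 7 of 27 rose and 4 fell.

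Of 21 receptor and IGF-axis genes 4 rose and 7 fell. The insulin receptor Insr fell from 9.66, 9.56 and 9.66 to 9.21, 9.16 and 9.16 (-0.45 ± 0.05; adjusted p = 1.95e-06, limma), and Igfbp1, a binding protein of IGFs, by 0.43. Avpr1a and Klb, given above, fell further. Igf1r rose by 0.61 ± 0.14, a size that shrank to 0.39 with 16 added to the linear values.

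Some interferon-response genes fell, and 1 control array stood apart in this list. Of 26 genes 0 rose, 9 fell and 17 were not called in limma (0 rose at an unadjusted p under 0.05), with a median of -0.29. The list averaged 6.27 in GFP replicate 1, 5.82 and 5.78 in the other two GFP arrays and 5.58 to 5.71 in the FXRα3 arrays. Without GFP replicate 1 the median was -0.15 and 5 genes fell and 1 rose; 5 fell without FXRα3 replicate 1. Rtp4, an interferon-induced chaperone, read 6.65, 4.89 and 4.60 with GFP and 3.88, 4.23 and 4.06 with FXRα3, -1.32 with that array and -0.69 without it. Stat2 and Ddx58 (RIG-I) likewise went from -0.70 and -0.69 to -0.45 and -0.38. Gbp2, a guanylate-binding protein, fell from 6.36, 5.91 and 5.78 to 5.02, 5.05 and 5.20, and the RNA sensor Ifih1 from 8.45, 8.20 and 8.03 to 7.65, 7.80 and 7.68; both calls held without it.

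FXRα1 (shorter N-terminus) carries the same insert and differs from FXRα3 in the N-terminus. The amount of each human isoform was not analysed here, so N-terminus and amount cannot be told apart in this comparison. Between them 416 genes were higher with FXRα3 (2.21% of all) and 875 lower (4.65%), 6.86% in all, and 2 and 17 of these differed by at least 2-fold. The split depended on the scaling: 32.22% of the called genes were higher as deposited, 45.74% after quantile normalization (692 higher, 821 lower), 58.55% after median centring (883 and 625) and 57.17% after 75th percentile centring (917 and 687). The number lower ranged from 504 without FXRα1 replicate 3, 533 and 543 without FXRα3 replicates 1 and 2, to 1471 without FXRα1 replicate 2; the number higher was 237 without FXRα3 replicate 2, 241 without FXRα1 replicate 1 and 255 without FXRα3 replicate 3.

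The widest gap was Abcb11. It read 8.27, 7.88 and 8.39 with FXRα1 against the 5.53, 5.51 and 5.95 of FXRα3, -2.52 on the log2 scale (± 0.13; adjusted p = 2.96e-11, limma), without any array near the other group. FXRα1 stood 3.01 ± 0.13 above the same GFP arrays. Bmp7 differed by -1.66 on its brighter probe set, while its dimmer one differed by 0.19 and did not pass. Sgk2, a kinase of the SGK family, read 5.35, 5.77 and 5.52 with FXRα3 and 7.14, 6.90 and 7.14 with FXRα1; against GFP, FXRα3 gave 0.21 ± 0.10, which among the alternatives run passed without FXRα3 replicate 1 (0.31). The transporter Flvcr2 differed by -1.51. The natriuretic peptide gene Nppb read 7.56, 7.72 and 7.86 with FXRα1 and 6.28, 6.34 and 5.88 with FXRα3.

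Several metabolic enzymes were also lower with FXRα3 than with FXRα1. The urate genes Uox and Urad differed by -1.45 ± 0.12 and -1.59 ± 0.10; Uox was raised by FXRα1 (0.92 ± 0.12) and lowered by FXRα3 (-0.53 ± 0.12) against the same GFP arrays. The thioesterase Acot4, the medium-chain ligase Acsm5 and the adenylosuccinate synthase Adssl1 differed by -1.34, -1.28 and -1.30. In amino acid catabolism 1 of 32 genes was higher and 9 lower, among them the homogentisate dioxygenase Hgd (-0.87), Kynu (-0.90) and the alanine aminotransferase Gpt (-0.62). Of 27 hepatocyte factors and receptors 0 were higher and 9 lower, including Nr1i2 (-0.93), Cebpa (-0.65) and Hnf4a (-0.42). Median or 75th percentile centring, or leaving out FXRα3 replicate 1 or 2, gave 5 lower factors. Of the 30 FXR targets 1 was higher and 9 lower, with Osgin1 at -0.97 and Insig2 at -0.45 after Abcb11; without FXRα3 replicate 1 the number lower was 5.

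Some chemokines and S-phase genes were higher with FXRα3 than with FXRα1. Cxcl2 read 7.94, 7.89 and 8.01 with FXRα1, between GFP and FXRα3, and differed by 1.15 ± 0.09 (adjusted p = 1.32e-08, limma). Ccl2 read 9.75, 9.88 and 9.76 with FXRα1, below the 10.44, 10.53 and 10.39 of GFP, so that FXRα3 stood 0.96 ± 0.06 higher. Of 29 chemokines and cytokines 5 were higher and 1 lower. E2f8 and E2f7, the atypical E2F repressors, differed by 0.85 and 0.79, and Cdk1 by 0.68; of 22 G1 genes 7 were higher and 0 lower, and of 25 replication genes 6 and 0. At an unadjusted p under 0.05 in limma, 2 G1 genes and 0 replication genes were lower. The replication count was 15 after median or 75th percentile centring, 11 after quantile normalization, 10 without FXRα1 replicate 3 and 3 without FXRα3 replicate 2, FXRα3 replicate 3 or FXRα1 replicate 2. Of the G1 genes 4 were higher without FXRα3 replicate 3. The protein kinase C substrate Marcks, the elongase Elovl4, Podxl, Dpysl2 and Dppa3 differed by 1.00, 0.80, 0.76, 0.75 and 0.77. Morc4, the most raised gene against GFP, differed by 0.08 ± 0.06 between these isoforms and did not pass (95% interval -0.04 to 0.20).

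FXRα4 shares the longer N-terminus and lacks the insert. Here too the insert and the amount of each isoform cannot be told apart. More genes passed here: 2588 genes were higher with FXRα3 (13.8%) and 2973 lower (15.8%), 29.5% in all, and 68 and 312 differed by at least 2-fold. Median centring over the tested genes shifted all differences by 0.1732 and gave 7503 higher and 1697 lower. Quantile normalization gave 2745 and 3230, and 75th percentile centring 2610 and 3175. These fits took the arrays as unpaired, though same-numbered FXRα3 and FXRα4 arrays deviated together from their group means. A fit with a replicate block gave 2936 higher and 3361 lower. The direction of small differences thus depended on the setting, and the differences named below exceed the shift of median centring.

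Mitotic genes were lower with FXRα3 than with FXRα4. All 24 measured members passed the test in this direction (23 or 24 under each alternative run), with a median of -1.56, while 4 of the 24 differed from GFP. Cep55, a protein of cell abscission, read 3.92, 3.81 and 3.90 with FXRα3, 4.23, 3.96 and 3.80 with GFP and 7.03, 7.18 and 7.55 with FXRα4, a gap of -3.37 ± 0.17; its difference from GFP, -0.12 ± 0.17, did not pass. The anaphase activator Cdc20, the kinase Plk1 and the ribonucleotide reductase subunit Rrm2 differed by -2.44 ± 0.20, -2.00 ± 0.14 and -2.13 ± 0.14. The replication list split, with 7 of 25 higher and 11 lower, or 12 and 6 after median centring, 4 and 11 without FXRα3 replicate 3 and 8 and 7 without FXRα4 replicate 3: Cdc45 differed by -1.20 and the licensing factor Cdt1 by 1.30. Rbl1 (p107), an E2F partner, was 1.99 higher on its brighter probe set, while its dimmer one differed by -0.29 and did not pass.

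Ductal genes diverged within 1 list. Epcam read 9.67, 9.63 and 9.79 with FXRα4 and 5.86, 5.56 and 5.87 with FXRα3, the largest gap of this comparison (-3.94 ± 0.10; adjusted p = 3.25e-17, limma). Krt19 read 8.29, 8.29 and 8.75 with FXRα4, below GFP, and 11.12, 11.04 and 11.23 with FXRα3, 2.69 ± 0.09 apart (adjusted p = 3.29e-15). Against the same GFP arrays, Epcam stood 0.74 higher with FXRα3 and 4.68 higher with FXRα4, and Krt19 1.76 higher with FXRα3 and -0.93 with FXRα4. Other wide gaps, given as FXRα3 minus FXRα4, were those of the lipid droplet protein Cidec (-3.02), the ephrin Efnb2 (-2.99), Ttc9 (-3.20), the T-cell costimulator Cd80 (-2.90) and the phosphate transporter Slc17a1 (-2.78). The growth factor receptor Igf1r differed by -2.15 and the immediate early gene Egr1 by -1.86.

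In the NRF2 list 19 of 31 genes were higher with FXRα3 than with FXRα4 and 2 lower. Cbr3 read 4.87, 4.55 and 5.14 with FXRα4 and 7.04, 6.82 and 7.59 with FXRα3 (2.29 ± 0.19; adjusted p = 4.98e-09, limma), and Gsta4 and the glutathione synthesis subunits Gclm and Gclc differed by 1.44, 0.81 and 0.43. Both of the latter lay below GFP with FXRα4, at -0.68 and -0.39. The iodide carrier Slc5a5 read 9.33, 9.44 and 9.71 with GFP, 8.40, 8.34 and 8.68 with FXRα3 and 6.50, 6.47 and 6.66 with FXRα4, an order in which no group overlapped its neighbour. The pyrimidine synthesis enzyme Umps (1.66), the semaphorin Sema3e (1.84), the serpin Serpinb9e (1.71) and the collagen-processing enhancer Pcolce2 (1.65) were also higher. Abcb11 was lower with FXRα3 than with FXRα4 too, at -1.38, while Cyp8b1 was higher, at 0.58.

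**Figure D5:**
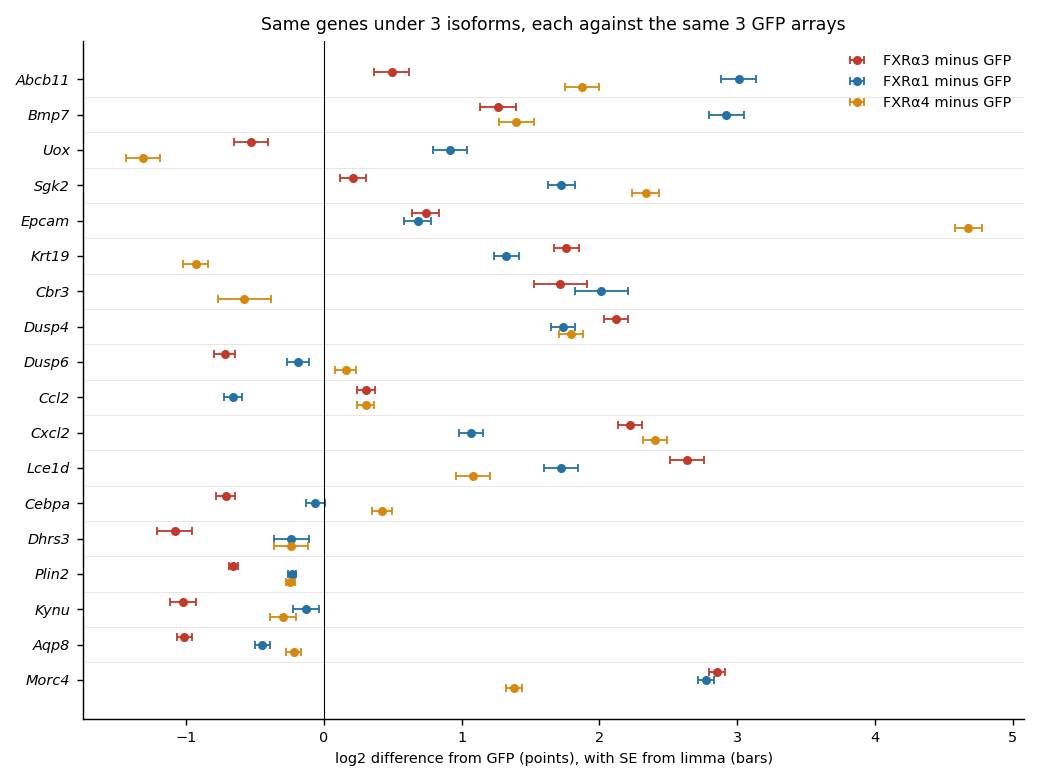
Points give the log2 difference from the same 3 GFP arrays for 18 genes under FXRα3, FXRα1 and FXRα4, and bars the limma standard error. For Abcb11 they lay at 0.49, 3.01 and 1.87, and for Epcam at 0.74, 0.68 and 4.68; the 3 comparisons share their controls.

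Of the 1402 genes that rose with FXRα3, 229 stood higher with it than with FXRα1, 84 lower and 1089 did not differ by the test; against FXRα4 these counts were 432, 419 and 551. Of the 1245 that fell, 367 fell further with FXRα3 than with FXRα1, 22 less and 856 were not called; against FXRα4 they were 388, 287 and 570. A difference that was not called is not shown to be 0. The same FXRα3 arrays chose these genes and entered the direct tests, which favours counts that moved further with FXRα3. The split is therefore a description.

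FXRα3 was higher than each of the 4 other groups in 72 genes (0.383% of all) and lower than each in 117 (0.622%); the contrasts share the FXRα3 arrays, and 32 genes were higher without FXRα3 replicate 3 and 175 after median centring. Lce1d led the higher ones, with its lowest FXRα3 array at 6.80 and the highest array of any other group at 6.14. The integrin subunit Itgb6 read 5.35, 5.70 and 5.30 with FXRα3 and between 4.24 and 4.92 in the 12 arrays of the other groups. The zinc transporter Slc30a3 (1.82 against GFP), Clba1 (1.32), Ints6l (0.88), Fam221a (0.69), the lectin Clec2d (0.63), the sodium pump interactor Nkain1 (0.62), Bex3 (0.54) and the protease Adamts6 (0.46) belonged to it as well; Adamts6 lost its call against GFP without FXRα3 replicate 3, GFP replicate 1 or GFP replicate 3.

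Among the genes lower with FXRα3 than in each other group, Dhrs3 read 5.90, 5.48 and 5.92 with FXRα3 and 6.28 or more in the 12 other arrays. Cebpa read 7.18, 7.11 and 7.21 with FXRα3, 7.87, 7.67 and 7.91 with FXRα1, 8.34, 8.24 and 8.32 with FXRα4 and 8.74, 8.62 and 8.66 with FXRα2, so FXRα1 overlapped GFP while FXRα4 and FXRα2 lay above it. Kynu and Acmsd, both on the tryptophan route, differed from FXRα1 by -0.90 and -0.96 and from FXRα4 by -0.73 and -0.63. The water channel Aqp8 read 8.75, 8.79 and 8.72 with FXRα3 and 9.30 to 9.80 in the remaining groups. The BMP co-receptor Hjv was -0.86 and -1.76 against FXRα1 and FXRα4. Tmem98, Insc and Banp completed the set named by the rule, with St3gal1, whose probe sets disagreed. Plin2 and Dusp6, described above, were lower too, at -0.43 and -0.53 against FXRα1 and -0.41 and -0.88 against FXRα4.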

How the data were processed

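RNA of 15 hepatocyte samples, 3 per group in 5 groups, was hybridised to 1 mouse Affymetrix array each. The deposited series table holds 1 log2 value per probe set and array, made by the authors with Affymetrix Expression Console 1.1 and PLIER, per the submitters' processing notes; how background and normalization were handled is not given in the sources used here, and the log2 scale was inferred from values that run from 1.93 to 13.8. Array medians, the number of arrays and the spread between them limit the precision; no detection call or sequencing depth exists for these values. The platform annotation names 1 gene for 21218 of the 35556 probe sets, several for 1881 and none for 12457. The brightest probe set over all arrays stood for a gene, which left 18820 genes.

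limma 3.58.1 (R 4.3.3) fitted a mean per group to all 15 arrays (lmFit, eBayes with a mean-variance trend, 10 residual degrees of freedom), two-sided, with Benjamini-Hochberg adjustment over all genes; tables and figures were made in Python 3.11.15. The code of the fit was run on simulated data with independent noise, which does not show how arrays that deviate together affect calls. Genes apart from all groups were those called in 1 direction in 4 contrasts. The rule for named genes took the 15 largest rises and falls without overlap of arrays against GFP and 10 each way in the other comparisons, passing over predicted genes, then the FXR targets with Nr1h4, Nr0b2, Cyp7a1 and Cyp8b1, and up to 4 members per list with the smallest adjusted p; further genes were chosen after their values were seen. Members and 39 gene lists were chosen with earlier results of these data known. Same-numbered arrays of FXRα3 and FXRα4 deviated together from their group means (correlations 0.328, 0.150 and 0.357, from the replicate numbers in the titles). Those of FXRα3 and GFP, and of FXRα3 and FXRα1, did not all do so. The main fit used no pairing in any comparison, so its values against FXRα4 leave this shared deviation aside. Promoter windows are those of RefSeq, mouse GRCm38.p6.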

Additional observations from a re-analysis of the deposited data

How the results depend on the processing

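Fits without the trend, with only the groups compared, without the dimmest 25% of genes, after quantile normalization, median or 75th percentile centring, with 16 added to the linear values, with every probe set, with the replicate block, and with each array left out were compared with the values given. Against GFP both counts stayed within 1.5 times, at 987 to 1226 risen and 887 to 1013 fallen genes when 1 array was left out. Against FXRα1 the number higher was 267 without the trend, 692 after quantile normalization, 883 and 917 after median and 75th percentile centring, and 237 to 455 with 1 array left out; the number lower ran from 504 to 1471 with 1 array left out. Against FXRα4 median centring gave 7503 higher and 1697 lower. Genes higher than in each other group, whose alternatives were chosen after seeing the data, numbered 110 after quantile normalization, 175 and 140 after the centrings and 32 to 81 with 1 array left out, and those lower 80 to 171. The cause was not tested.

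With the replicate block, FXRα3 against FXRα1 gave 706 higher and 1411 lower genes, and 123 genes were higher and 186 lower than in each other group. FXRα3 against FXRα4, where same-numbered arrays deviated together, gave 2936 and 3361. There the block changed no call of a named gene. Against GFP, 8 immediate early, 8 lipid droplet, 7 mitotic, 5 G1, 3 p53, 3 ketone body, 2 NF-kappaB and 1 fatty acid oxidation genes rose with the block. In the same fit 5 NF-kappaB, 5 p53, 6 complement and 1 stellate genes fell. Same-numbered arrays correlated at -0.127, 0.121 and 0.020 for FXRα3 and GFP and at -0.039, 0.179 and 0.372 for FXRα3 and FXRα1. Yet replicate 3 had the highest mean of the replication, mitosis and G1 lists in each group, GFP included. Whether the numbers pair FXRα3 arrays with GFP or FXRα1 arrays is therefore not settled here. Of 248 gene results 240 kept direction and call in every alternative run; Nr1h4, not called, ranged from -0.040 to 0.014 with 1 array left out and changed sign without FXRα3 replicate 1 or GFP replicate 3. Of 546 list medians under the alternatives, 58 moved by more than the spread of the FXRα3 arrays. With 3 arrays a group, small differences near the threshold are not resolved, and dim probe sets have no detection call here.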

Other observations

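Some genes of drug metabolism, coagulation and the acute phase also moved with FXRα3, where 7.45% of all genes rose and 6.62% fell. Of 27 measured P450 genes of families 1 to 3, 6 rose and 2 fell (1 without FXRα3 replicate 2 or GFP replicate 1), at a median of 0.10. Cyp2e1, which oxidizes ethanol and acetaminophen, rose from 9.69, 9.60 and 9.69 to 9.94, 10.05 and 10.003 (0.34 ± 0.05; adjusted p = 6.39e-05, limma). Cyp2u1 differed by 0.39 ± 0.06, Cyp3a13 by 0.41 ± 0.08 and the vitamin D 25-hydroxylase Cyp2r1 by 0.32 ± 0.07, and all 3 passed the test. Of 32 complement and coagulation genes 6 rose and 3 fell (5 after median centring or with only the groups compared, 6 after quantile normalization); kininogen Kng1 differed by 0.27 ± 0.04, the complement protease C1s1 by -0.45 ± 0.07 and plasminogen Plg by 0.29 ± 0.06. Of 23 acute phase genes 6 rose and 5 fell. Lcn2, an iron-scavenging acute phase protein, went from 12.10, 12.12 and 12.05 to 12.42, 12.49 and 12.43 (0.36 ± 0.04), while C-reactive protein Crp differed by -0.43 ± 0.09 and the signalling factor Stat3 by -0.31 ± 0.05. The groups did not overlap in Lcn2 or Cyp2e1.

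Remaining lists changed in few genes or were mixed. Of 25 lipolysis and lipid droplet genes 5 rose (3 without GFP replicate 2 or with 16 added to the linear values) and 3 fell; the droplet-associated Cideb differed by 0.33 ± 0.06 and Hsd17b11 by 0.33 ± 0.06. Of 7 genes of ketone bodies 1 rose (2 or 3 in 7 alternatives) and 1 fell, the thiolase Acat1, at -0.23 ± 0.06. Of 31 genes of the mitochondrial respiratory chain 1 rose (4 with only the groups compared) and 3 fell (1 without FXRα3 replicate 3 or GFP replicate 2). Over all genes 7.45% rose and 6.62% fell. Of 16 keratins and intermediate filament genes 3 rose and 3 fell (1 without GFP replicate 2 or 3, 5 after quantile normalization), with Krt5 and Krt19 among those that rose. In the hepatocyte marker list 4 of 10 genes rose and 1 fell, and that one was Tat, described above; transthyretin (Ttr, 0.29) was among those that rose.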
